A study of Mus musculus with 18 samples.

Results

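Adrenal glands of female Ephb6 knockout mice were compared with those of female wild-type mice. The 6 arrays, 3 of each genotype, were taken by their labels from the 18 arrays of the series, whose other 12 hold intact and castrated males of the same 2 genotypes. All mice were labelled C57BL/6N and 2 months old. The female knockout group (KO arrays 1 to 3) carried the label EphB6KO and the female wild-type group (WT arrays 1 to 3) the label EphB6 WT, with no treatment named for either. How the allele was made, which part of the gene it removes and whether glands of several mice were pooled are not given in the sources used here. Samples of a group are numbered and not said to be separate animals. The p-values therefore describe the scatter among these samples, some or all of which may be technical.

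Ephb6 belongs to the Eph family of receptor tyrosine kinases, which bind ephrins on the surface of neighbouring cells. Its kinase domain is inactive, and it passes signals on through partners, other Eph receptors among them. The adrenal cortex makes steroids: aldosterone in the outer zona glomerulosa and corticosterone in the zona fasciculata. In mice an inner X-zone persists in young females. The medulla consists of chromaffin cells, which make catecholamines and release them, together with peptides such as galanin and neuropeptide Y, by exocytosis.

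Mean bead signals of the 6 arrays were 477 to 579, and 34.6% to 36.3% of the probes were detected (detection p under 0.01). KO array 1 stood apart. It correlated with its own group at a mean of 0.970, where the other female arrays reached 0.980 to 0.987, and it lay farthest from the WT mean among the KO arrays for 57.2% of the 10375 genes tested. The RNA of Xist, which silences an X chromosome, was at a log2 intensity of 8.14 on KO array 1, against 9.70 to 10.2 on the other female arrays. Eif2s3y, a gene of the Y chromosome, was not detected on any of the 6. The defining markers of the labelled tissue were bright on every array, with Cyp11b1, which makes corticosterone, at 13.9 to 14.1 and Dbh, which makes noradrenaline, at 12.1 to 13.2.

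Ephb6 had the lowest p-value of all genes tested but did not pass. Its log2 intensity was 4.96, 5.41 and 5.54 on KO arrays 1 to 3, against 6.51, 7.12 and 6.69 on WT arrays 1 to 3. All KO arrays lay below all WT arrays. The means were 5.30 ± 0.30 in KO and 6.77 ± 0.32 in WT (SD, n = 3 each), a difference of -1.47 (SE 0.26, limma adjusted p = 0.233). The signal before correction was 149.5, 174.2 and 160 in KO, against 215.5, 293.9 and 205 in WT. Only KO array 3 detected the probe (detection p 0.00962), while all 3 WT arrays did. The KO signal was thus near background, and the difference depended on how background was handled: without background correction the difference came to -0.50, and on the authors' normalized values to -0.55.

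No other gene passed either. By limma 0 of 10375 genes (0%) had an adjusted p under 0.05. A p under 0.05 before adjustment was found for 291 genes (2.8%), of which 155 (1.49%) were higher in KO and 136 (1.31%) lower. In 805 genes (7.76%) the 3 KO arrays did not overlap the 3 WT arrays, 426 of them (4.11%) on the higher and 379 (3.65%) on the lower side. Differences were small for most genes, with a median size of 0.117 on the log2 scale, against a median standard error of 0.206. Only 15 genes differed by more than 1, of which 4 were higher and 11 lower in KO. Every gene named below other than Ephb6 had a limma adjusted p of 1.00 for KO minus WT. Differences are on the log2 scale, and none was past the threshold unless stated. In whole glands, fewer cells of a type and less RNA per cell cannot be told apart.

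**Figure D1:**
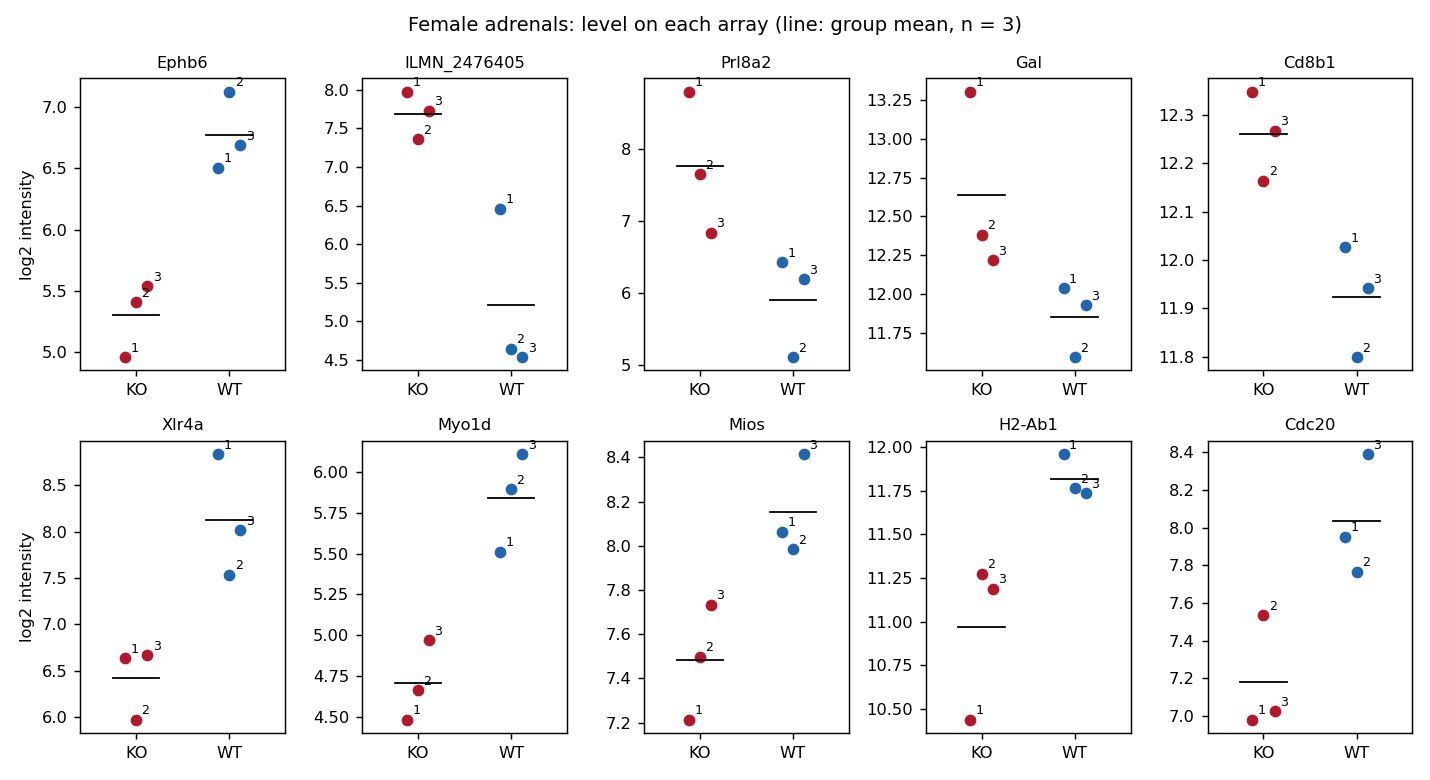
Log2 intensity on each female array for 9 genes and the unnamed probe ILMN_2476405, with KO arrays left, WT arrays right, array numbers beside the points and a line at each group mean (n = 3 each). Ephb6 lay lower on all KO arrays, and ILMN_2476405 was at 7.36 to 7.98 on the KO arrays and 6.46, 4.65 and 4.54 on the WT arrays. The axes do not start at 0 and differ between panels.

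A probe to which the platform annotation gives no gene symbol, ILMN_2476405, had the lowest adjusted p of all probes kept. Its log2 intensity was 7.98, 7.36 and 7.73 on KO arrays 1 to 3, against 6.46, 4.65 and 4.54 on WT arrays 1 to 3. WT array 1 was between the KO arrays and the other WT arrays. The means were 7.69 ± 0.31 in KO and 5.22 ± 1.08 in WT (SD, n = 3 each), a difference of 2.47 (SE 0.38). It was the 1 of 2441 probes without a single symbol that passed (limma adjusted p = 0.0145). Adjusted over all 18158 probes kept, its p was 0.0590 and 0 probes passed. The call was lost in 5 alternatives: the limma adjusted p over the probes without a symbol was 0.107 without KO array 1, 0.105 without KO array 3, 0.178 without WT array 2, 0.166 without WT array 3 and 1.00 with the female arrays alone. Without WT array 1 the difference was 3.10 (adjusted p = 1.11e-05).

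The same probe separated the genotypes in males. Over the series it was detected on 9 of 9 KO arrays and on 1 of 9 WT arrays, WT female array 1. It was the 1 probe of 45281 detected on at least 8 KO arrays and on at most 1 WT array. The probe was picked by its p in these data, and this cut-off was written around its own pattern. Its KO minus WT difference was 2.55 in intact males (limma adjusted p = 0.0404 over all probes kept) and 3.05 in castrated males (adjusted p = 0.00333), where no WT array detected it. The signal was thus at least 2.90-fold higher in KO intact males and at least 3.98-fold higher in KO castrated males. In females it was at least 4.40-fold higher than on WT arrays 2 and 3. These bounds set the bright group against the lowest signal of any detected probe on each dim array. WT female array 1 stood apart from the other 8 WT arrays in this probe. Its Ephb6 level of 6.51 was the lowest of the 3 female WT arrays and above all 3 KO arrays. Whether this array carries a wrong label or a mixture of RNA could not be settled, and the WT mean of the probe in females rests partly on it.

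Among genes on the higher side, a peptide hormone and a neuropeptide had small p-values and large differences. Prl8a2, a member of the prolactin family known from the placenta and decidua, was at 8.80, 7.65 and 6.84 in KO, against 6.43, 5.12 and 6.19 in WT. The groups did not overlap, and WT array 2 did not detect it. The difference was 1.85 (SE 0.55). Gal, the precursor of galanin, was at 13.3, 12.4 and 12.2 in KO, against 12.04, 11.60 and 11.93 in WT. All KO arrays lay above all WT arrays, with KO array 1 highest, and the difference was 0.78 (SE 0.23). Igf1, an insulin-like growth factor, was at 7.84, 8.43 and 7.92 in KO, against 7.17, 7.08 and 7.71 in WT. The groups did not overlap, and its 2 probes gave 0.75 and 0.77. Ache, which breaks down acetylcholine, was at 7.19, 6.76 and 6.69 in KO, against 6.16, 6.17 and 6.06 in WT, a difference of 0.76 (SE 0.34). Its KO arrays again all lay above the WT arrays.

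Other genes on the higher side were more even across arrays. Slc39a11, a zinc transporter, was at 10.4, 10.2 and 10.1 in KO, against 9.65, 9.73 and 9.97 in WT (difference 0.43, SE 0.12). Trim62, a ubiquitin ligase, was at 7.01, 7.06 and 7.32 in KO, against 6.32, 6.51 and 6.70 in WT (difference 0.62, SE 0.19). In both the groups did not overlap. Pdf, a mitochondrial peptide deformylase, differed by 0.73 (SE 0.22) and Gpx3, a secreted glutathione peroxidase, by 0.84 (SE 0.27), with overlapping groups in Gpx3. Synrg, which takes part in vesicle trafficking, differed by 0.54 on the probe used and 0.59 on its other probe. Tmed10, a cargo receptor of the early secretory pathway, differed by 0.33 on the probe used but by 0.08 on its other probe, which all 6 arrays detected too. Fgf13, a regulator of sodium channels, was not detected on any WT array and was at least 1.26-fold higher in KO.

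Cd8b1, a co-receptor chain of cytotoxic T cells, had the lowest p-value of the higher genes. It was at 12.35, 12.16 and 12.27 in KO, against 12.03, 11.80 and 11.94 in WT, and the groups did not overlap (difference 0.34, SE 0.10). Other T cell genes were at or near background: Cd3d, of the T cell receptor complex, was not detected on any of the 6 arrays, and Cd3e and Cd3g were each detected on 1 KO and 1 WT array. The second probe of Cd8b1, detected on 0 KO and 2 WT arrays, went the other way (-0.42). Of 9 lymphocyte markers tested, 8 were lower in KO and Cd8b1 was the 1 that was higher.

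On the lower side, Xlr4a had the largest difference among genes whose groups did not overlap. This X-linked gene belongs to the Xlr family of lymphocyte-regulated genes. It was at 6.63, 5.97 and 6.66 in KO, against 8.84, 7.53 and 8.01 in WT. Every KO array lay below every WT array, and the difference was -1.70 (SE 0.51). Its close relatives Xlr4b and Xlr4c were not tested, and whether the probe also binds their RNA is not given in the files. Myo1d, an unconventional myosin, was at 4.48, 4.66 and 4.97 in KO, against 5.51, 5.89 and 6.11 in WT. No KO array detected it and all 3 WT arrays did, so that it was at least 1.21-fold lower in KO.

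Mios, a component of the complex that relays amino acid supply to mTOR, was at 7.21, 7.50 and 7.73 in KO, against 8.06, 7.99 and 8.41 in WT. All KO arrays lay below all WT arrays (difference -0.67, SE 0.18). Mios lies on chromosome 6, as Ephb6 does. Over the 530 genes tested on that chromosome the median difference was 0.0039. At an unadjusted p under 0.05, 10 were higher and 9 lower, against 1.49% and 1.31% of all genes. Within 5 Mb of Ephb6, 29 genes had a median of -0.10, with 1 higher and 1 lower at that level. Their groups did not overlap in 1 on the higher and 3 on the lower side, against 4.11% and 3.65% of all genes. Among the 29, Akr1d1, a steroid reductase, differed by -0.64 (SE 0.24) and Ndufb2, a subunit of respiratory complex I, by 0.49. Each had groups that did not overlap.

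Genes of cell division lay lower in KO as a group. Of 34 proliferation genes listed, 32 were on the array and 21 were tested, and all 21 had a lower mean in KO, with a median of -0.39. The median over all genes was 0.0049, with 5327 higher and 5048 lower. With an unadjusted p under 0.05 stood 9 proliferation genes, all lower, against 1.31% of all genes on that side, and in 8 the groups did not overlap, against 3.65% of all genes. None passed with adjustment over all genes. The 13 members not tested, Mki67 and Pcna among them, did not meet the detection filter or were not on the array.

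Members of the mitotic machinery made up most of these genes. Cdc20, which activates the ligase that ends metaphase, was at 6.98, 7.54 and 7.03 in KO, against 7.95, 7.77 and 8.39 in WT (difference -0.86, SE 0.29). Aurka, a kinase of the spindle poles, was at 6.10, 6.03 and 6.05 in KO, against 6.63, 6.36 and 7.13 in WT (difference -0.65, SE 0.23). In both genes all KO arrays lay below all WT arrays, and WT array 3 was highest. Cdk1, the kinase that drives entry into mitosis, was at 6.31, 5.92 and 6.00 in KO, against 6.63, 6.66 and 7.01 in WT (difference -0.69, SE 0.27). Cenpa, the histone of the centromere, differed by -0.63, Birc5, a subunit of the chromosomal passenger complex, by -0.59, and Aurkb, its kinase, by -0.50. In these too the groups did not overlap. Bub1b, of the spindle checkpoint, differed by -0.51 with overlapping groups.

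Genes of DNA synthesis also lay lower in KO. Tk1, which makes thymidine phosphate, was at 6.28, 6.70 and 6.14 in KO, against 6.80, 7.15 and 7.83 in WT (difference -0.89, SE 0.32). The groups did not overlap, though its second probe, detected on 1 KO and 1 WT array, gave -0.22. Mcm5, a subunit of the replicative helicase, differed by -0.39 (SE 0.15), and the other helicase subunits ran from Mcm2 at -0.39 to Mcm3 at -0.05. Outside the list, Cdca2 (-0.72, SE 0.23) and Kif22 (-0.73, SE 0.23), which act on mitotic chromosomes, were among the 12 lowest p-values on the lower side. Kif2c, a microtubule depolymerase of the centromere, differed by -0.80. In these 3 genes the groups did not overlap. They were named for a low p or a large difference, so their direction is no support for the list. Other mitotic genes outside the list were not counted.

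The proliferation result did not rest on KO array 1, and it was smaller without WT array 3. The median deviation of the 21 genes from the WT mean was -0.49, -0.25 and -0.55 on KO arrays 1 to 3, against -0.14, -0.09 and 0.25 on WT arrays 1 to 3. Every KO array was below every WT array. Without KO array 1 the median difference was -0.42. At an unadjusted p under 0.05 there were then 8 genes, against 0.675% of all genes on the lower side. That count was 5 without KO array 3 and 5 with median scaling. Median scaling sets the arrays to a common median in place of quantile normalization. Of all genes, 527 and 138 reached that level there in either direction, against 291 in the main fit. Without WT array 3 the median difference was -0.31, with 20 of 21 genes lower. At that level there were then 0, where 308 of all genes reached it. The 8 lymphocyte markers other than Cd8b1, summed, were at 830, 908 and 992 in KO, against 1057, 1139 and 1213 in WT (linear intensity). With Cd8b1 the sum was 6028, 5481 and 5907 in KO, against 5214, 4687 and 5131 in WT, so that its direction turned on this 1 gene, whose probes disagree. The sum without it was taken after its values were seen. The part of other cell types in the proliferation result was not tested.

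The promoters of 3 of these genes, those with the lowest p-values that have an entry, are printed as examples of the list. They span 250 bases before to 50 after the gene start, from RefSeq on GRCm38.p6, and 19 of the 21 genes had an entry. Capitals mark the cell cycle homology region (TTTGAA or TTCGAA) and CCAAT, searched on both strands, which are known elements of mitotic gene promoters. The windows are Cdc20 at chr4:118437294-118437593, minus strand, Aurka at chr2:172370521-172370820, minus strand, and Tk1 at chr11:117825965-117826264, minus strand.
Cdc20: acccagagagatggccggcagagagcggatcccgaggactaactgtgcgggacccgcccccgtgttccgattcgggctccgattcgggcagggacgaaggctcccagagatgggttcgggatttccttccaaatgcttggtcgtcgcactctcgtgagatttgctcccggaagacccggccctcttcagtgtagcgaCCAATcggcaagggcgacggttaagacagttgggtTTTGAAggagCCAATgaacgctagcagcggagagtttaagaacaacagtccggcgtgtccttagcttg
Aurka: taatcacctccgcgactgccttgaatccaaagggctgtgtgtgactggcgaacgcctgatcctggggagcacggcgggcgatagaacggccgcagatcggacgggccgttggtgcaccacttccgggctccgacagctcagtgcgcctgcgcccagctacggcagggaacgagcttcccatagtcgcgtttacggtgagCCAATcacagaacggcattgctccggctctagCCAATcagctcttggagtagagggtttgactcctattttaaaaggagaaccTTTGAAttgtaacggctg
Tk1: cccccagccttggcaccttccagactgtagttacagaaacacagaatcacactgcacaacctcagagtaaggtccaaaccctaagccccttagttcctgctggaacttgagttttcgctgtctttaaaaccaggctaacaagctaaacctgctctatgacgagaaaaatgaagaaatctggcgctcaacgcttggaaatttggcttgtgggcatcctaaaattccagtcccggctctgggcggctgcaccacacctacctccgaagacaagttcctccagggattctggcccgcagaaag
The first element stood in 10 of the 19 promoters (52.6%), against 19.4% of 27025 promoters. CCAAT stood in 15 of 19 (78.9%), against 37.9%. The 27025 promoters are all those with an entry, not only those of genes tested. The list was made up of cell division genes, so these shares describe its members and do not test the knockout. Cdc20 and Aurka hold both, with no overlap between their matches, and Tk1 holds neither in this window.

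**Figure D2:**
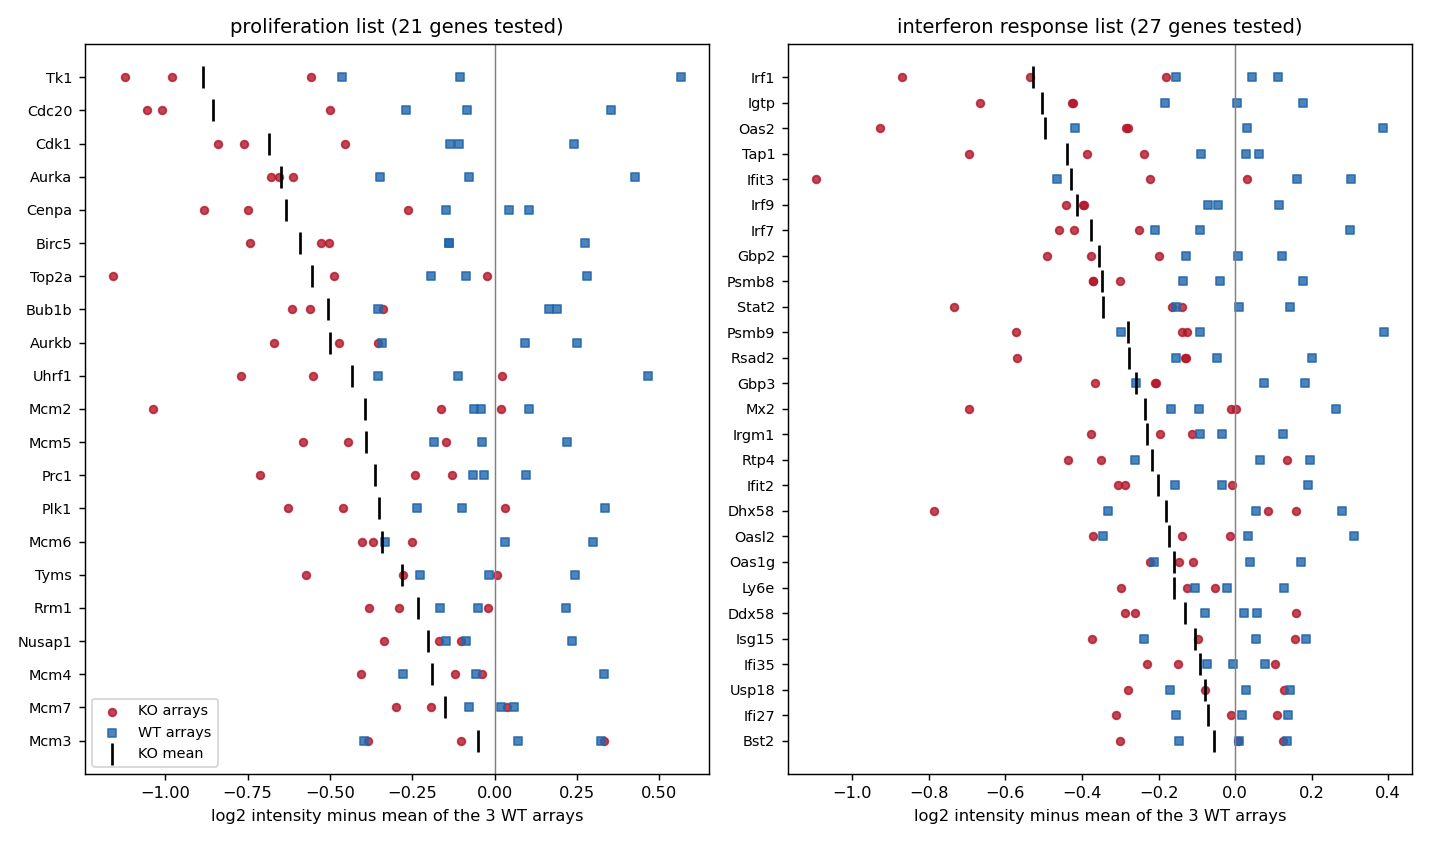
Each female array's log2 intensity minus the mean of the 3 WT arrays, for the 21 proliferation genes and the 27 interferon response genes tested. Red circles are KO arrays, blue squares WT arrays and black bars the KO mean. All KO means lie below 0, from -0.89 (Tk1) to -0.05 (Mcm3) at left and from -0.53 (Irf1) to -0.06 (Bst2) at right, while single arrays of many genes overlap.

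Interferon response genes lay lower in KO by a smaller amount. Of 36 listed, 27 were tested and all 27 had a lower mean in KO, with a median of -0.23. An unadjusted p under 0.05 was reached by 5, against 1.31% of all genes on the lower side, and in 8 the groups did not overlap, against 3.65%. Igtp, an interferon-induced GTPase, was at 10.1, 9.89 and 10.1 in KO, against 10.7, 10.4 and 10.6 in WT (difference -0.51, SE 0.19). Irf9, the DNA-binding subunit of the interferon-activated complex, was at 9.56, 9.60 and 9.60 in KO, against 10.1, 9.95 and 9.93 in WT (difference -0.41, SE 0.16). All KO arrays lay below all WT arrays in both. Irf1, a transcription factor induced by interferon gamma, differed by -0.53, and its 4 probes ran from -0.53 to -0.72.

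More members of the list, and some genes outside it, were also lower. Those outside were named for a low p or a large difference, so their direction is no support for the list. Other interferon genes outside it were not counted. Gbp2, a guanylate-binding protein, differed by -0.36 and Tap1, a peptide transporter for class I antigen presentation, by -0.44, each with groups that did not overlap. Gbp10, a relative of Gbp2 outside the list, was not detected on any KO array and was at least 1.33-fold lower. Nlrc5, the transactivator of class I genes and also outside the list, was at 5.71, 6.77 and 7.05 in KO, against 7.65, 7.31 and 7.25 in WT (difference -0.89, SE 0.33). The groups did not overlap, and KO array 1 was lowest. Within the list, Irf7, detected on all 6 arrays, differed by -0.38, while Isg15 (-0.10), Usp18 (-0.08) and Bst2 (-0.06) were near 0.

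The median deviation of the 27 genes was -0.37, -0.22 and -0.20 on KO arrays 1 to 3, against -0.10, 0.03 and 0.06 on WT arrays 1 to 3. All KO arrays were below all WT arrays, KO array 1 the most. Without KO array 1 the median was -0.19, with 24 of 27 lower and 2 at an unadjusted p under 0.05. Without WT array 1 it was -0.35, with 27 lower and 1 at an unadjusted p under 0.05. Without KO array 2 there was also 1, without WT array 2 there were 3, and with median scaling 0. At that level stood 0.675% of all genes on the lower side without KO array 1. In either direction 281 of all genes reached it without WT array 1 and 522 without KO array 2. The number was 172 without WT array 2 and 138 with median scaling.

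Class II antigen presentation genes had larger differences. H2-Ab1, a class II beta chain, was at 10.4, 11.3 and 11.2 in KO, against 11.96, 11.76 and 11.74 in WT. Again no array of one genotype reached the other, and the 3 probes of the gene gave -0.85 (SE 0.28), -0.94 and -0.93. H2-Eb1, another beta chain, was at 10.2, 10.9 and 10.7 in KO, against 11.7, 11.2 and 11.3 in WT (difference -0.84, SE 0.29). Cd74, the invariant chain, was at 11.4, 11.9 and 11.9 in KO, against 12.7, 12.4 and 12.4 in WT (difference -0.78, SE 0.29). In all 3 genes KO array 1 was lowest and WT array 1 highest. H2-Aa, the matching alpha chain, differed by -0.38 with overlapping groups.

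Other myeloid markers lay on both sides of 0. Of 22 macrophage and antigen presentation markers tested, 8 were higher and 14 lower, with a median of -0.09. The 4 at an unadjusted p under 0.05, all lower, were the 3 class II genes and Mrc1, the mannose receptor (-0.38, SE 0.17), against 1.31% of all genes on that side. Only 1 of the 22 markers was lower at that level without KO array 1, 1 without WT array 1 and 2 with median scaling. Of all genes, 0.675% were lower at that level without KO array 1. In either direction 281 of all genes reached it without WT array 1 and 138 with median scaling. C1qa, C1qb and C1qc, the complement chains made by macrophages, differed by -0.10, -0.05 and -0.04, and Lyz2, lysozyme, by 0.06. Csf1r, the receptor for a macrophage growth factor, differed by -0.20 (SE 0.16) and by -0.46 on its other probe, which all 6 arrays detected too. Without KO array 1, 18 of the 22 markers were lower and 4 higher, with a median of -0.11. The summed signal of the list was 30909, 30381 and 32547 in KO, against 39453, 32451 and 36676 in WT (linear intensity), and the part of cell numbers was not tested.

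The promoters of Igtp and Gbp2 are printed as the 2 interferon genes of lowest p that hold the letters GAAA, any 2 bases and GAAA again, a core of the interferon-stimulated response element, on either strand. Capitals mark it. They lie at chr11:58199306-58199605, plus strand, for Igtp and chr3:142620413-142620712, plus strand, for Gbp2 (RefSeq, GRCm38.p6).
Igtp: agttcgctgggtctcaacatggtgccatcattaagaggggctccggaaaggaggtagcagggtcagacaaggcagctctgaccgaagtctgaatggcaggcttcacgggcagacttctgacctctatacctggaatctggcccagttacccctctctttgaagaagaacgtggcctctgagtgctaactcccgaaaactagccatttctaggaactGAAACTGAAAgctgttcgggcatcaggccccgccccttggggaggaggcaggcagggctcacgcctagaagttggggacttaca
Gbp2: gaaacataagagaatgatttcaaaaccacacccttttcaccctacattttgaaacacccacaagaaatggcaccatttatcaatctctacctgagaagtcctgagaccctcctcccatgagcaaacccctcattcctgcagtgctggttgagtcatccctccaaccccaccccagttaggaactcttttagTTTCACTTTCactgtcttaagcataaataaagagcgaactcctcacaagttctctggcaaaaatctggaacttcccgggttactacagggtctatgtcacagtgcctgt
Of the 27 genes 20 had an entry, and 11 of these (55.0%) held the letters, against 3.49% of all promoters. The list was made up of interferon response genes, so this share describes its members and does not test the knockout. Irf9 and Irf1 do not hold them in this window.

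Genes of the medulla were higher in KO, but this rested largely on KO array 1. Of 13 genes of catecholamine synthesis, loading and breakdown tested, 12 were higher, with a median of 0.22 and 0 at an unadjusted p under 0.05. Th, which makes L-DOPA, was at 13.82, 12.97 and 12.79 in KO, against 13.4, 12.8 and 12.8 in WT. Ddc, which makes dopamine, was at 11.77, 10.67 and 10.84 in KO, against 10.95, 10.37 and 10.86 in WT. Pnmt, which makes adrenaline, was at 13.51, 12.49 and 12.92 in KO, against 13.33, 12.32 and 12.45 in WT. In each gene KO array 1 was highest and the groups overlapped. The median deviation of the 13 genes was 0.63, 0.00 and 0.01 on KO arrays 1 to 3, against 0.13, -0.10 and 0.06 on WT arrays 1 to 3. Without KO array 1 the median was 0.031, with 8 genes higher and 5 lower.

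Granins, neuropeptides and their processing enzymes again stood out on KO array 1. Of 15 tested, 14 were higher, with a median of 0.28 and 3 at an unadjusted p under 0.05, against 1.49% of all genes on the higher side. Besides Gal these were Npy, neuropeptide Y, which was at 15.2, 14.5 and 14.6 in KO, against 14.6, 14.2 and 14.2 in WT (difference 0.49, SE 0.19), and Ptprn, a membrane protein of dense-core vesicles (difference 0.69, SE 0.28). Chga, the granin of chromaffin granules, was at 14.8, 14.2 and 14.4 in KO, against 14.1, 14.1 and 14.2 in WT. Its groups did not overlap (difference 0.33, SE 0.16). The median deviation was 0.94 on KO array 1, 0.06 on KO array 2 and 0.01 on KO array 3, and without KO array 1 the median difference was 0.037 with 8 genes higher and 7 lower. At an unadjusted p under 0.05 there was then 1 gene, as there was without WT array 3. Of all genes, 0.877% were higher at that level without KO array 1, and 308 reached it in either direction without WT array 3. Gal was at 12.4 and 12.2 on the other 2 KO arrays, still above the 3 WT arrays.

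The lists of transcription factors and of the release machinery were higher too, again most on KO array 1. Of 11 chromaffin lineage factors 10 were higher, with a median of 0.30. Hand2 (0.95, SE 0.40) and Gata2 (0.50, SE 0.21), both factors of sympathoadrenal development, had an unadjusted p under 0.05, against 1.49% of all genes. The list's median without KO array 1 was -0.02, with 5 of 11 higher. Of 23 genes of excitation and exocytosis 18 were higher, with a median of 0.30 and 4 at an unadjusted p under 0.05, against 1.49% of all genes. These were Chrnb4, a nicotinic receptor subunit (0.86, SE 0.34), Kcnma1, a calcium-activated potassium channel (0.47, SE 0.20), Rab3b, a vesicle GTPase (0.67, SE 0.29), and Cadps, a priming factor of dense-core vesicles (0.72, SE 0.33). Another Kcnma1 probe, detected on 2 KO and 3 WT arrays, went the other way (-0.39), and a further one gave 0.07. Without KO array 1 the median of the 23 genes was 0.11 with 16 of 23 higher and 0 at an unadjusted p under 0.05. Without WT array 2 there were also 0 at that level. Of all genes, 0.877% were higher at that level without KO array 1, and 172 reached it in either direction without WT array 2. With array weights the medians of the 4 medulla lists were 0.096 for catecholamines, 0.076 for granins and neuropeptides, 0.054 for the factors and 0.18 for the release genes. On KO array 1 the median deviation was 0.82 for the factors, 0.90 for the release genes, 0.67 for 6 Schwann and sustentacular cell markers and 1.19 for 6 liver markers. On the other female arrays these 4 lists lay between -0.15 and 0.15.

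**Figure D3:**
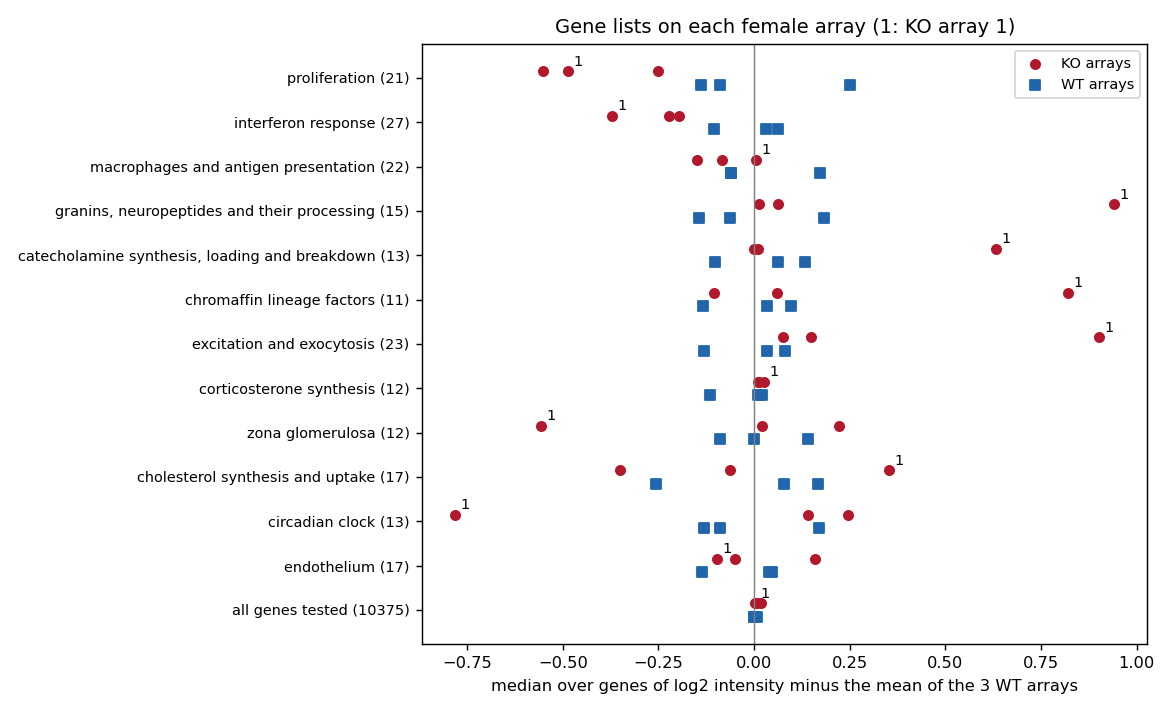
Median over the genes of each list (number tested in parentheses) of log2 intensity minus the mean of the 3 WT arrays, on each female array, with KO arrays as red circles and WT arrays as blue squares. KO array 1, marked 1, lies at 0.63 to 0.94 for the 4 lists of the medulla, where the other KO arrays lie near 0, and at -0.78 for the circadian clock. For the proliferation and interferon lists all 3 KO arrays lie below the WT arrays.

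Genes of the cortex differed little. The 12 genes of corticosterone synthesis tested were 6 higher and 6 lower in KO, with a median of -0.01, and 0 had an unadjusted p under 0.05. Cyp11b1 was at 14.0, 14.0 and 14.1 in KO, against 14.0, 13.9 and 14.0 in WT. Star, which moves cholesterol into mitochondria, was at 12.04, 12.46 and 12.56 in KO, against 12.85, 12.14 and 12.33 in WT. Mc2r, the receptor for ACTH, was at 11.1, 11.4 and 11.4 in KO, against 11.4, 11.5 and 11.7 in WT. The groups overlapped in all 3. Cholesterol synthesis and uptake genes (17 tested) had a median of 0.014, with a median deviation of 0.35 on KO array 1. Without that array the median was -0.20 with 14 of 17 lower, and with array weights it was -0.15 with 14 lower.

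The outer and inner zones varied more between arrays than between genotypes. The 12 zona glomerulosa genes had a median of -0.10, with a median deviation of -0.56 on KO array 1 and 0.22 and 0.02 on KO arrays 2 and 3, against 0.14, 0.00 and -0.09 on WT arrays 1 to 3. Without KO array 1 the median was 0.083, with 9 of 12 higher. Cyp11b2, which makes aldosterone, was at 7.36, 8.55 and 8.55 in KO, against 8.63, 7.60 and 8.21 in WT. The X-zone markers ranged widely: Akr1c18, which inactivates progesterone, was at 14.4, 13.7 and 13.1 in KO, against 13.9, 14.2 and 12.9 in WT. Pik3c2g, a lipid kinase, was at 10.8, 9.47 and 8.78 in KO, against 10.2, 10.2 and 8.56 in WT. In both genes the groups overlapped, and array 3 was the lowest of each genotype. Cyp2f2, a cytochrome P450, differed by -0.38 (SE 0.19), also with overlap.

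Other members of the receptor family had no difference of comparable size. Of 14 Eph receptors listed, 13 were on the array and 7 were tested. After Ephb6 the lowest p belonged to Epha4, which was at 5.57, 5.55 and 5.79 in KO, against 5.31, 5.38 and 5.05 in WT, near background (detected on 2 KO and 0 WT arrays). Ephb4, a receptor of vessels, was at 10.3, 10.5 and 10.7 in KO, against 10.5, 9.96 and 10.4 in WT (difference 0.23, SE 0.21). Epha3 differed by 0.45, Epha5 by 0.14, Ephb1 by 0.08 and Epha2 by 0.07, all with overlapping groups. Of the ephrins, 4 of 8 were tested. Efnb1, a ligand of EphB receptors, differed by 0.11, and Efna1, Efna4 and Efna5, ligands of EphA receptors, by 0.05, 0.05 and -0.02. Among 17 adaptors and effectors of Eph signalling, 7 were higher and 10 lower, with a median of -0.05.

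Circadian genes stood apart on KO array 1, and Adipoq, Car3 and Ces1d were highest on WT arrays 2 and 3. The 13 circadian clock genes had a median of -0.23, which was 0.10 without KO array 1. Dbp, an output of the clock, was at 12.4, 14.2 and 14.1 in KO, against 13.7, 14.1 and 13.7 in WT, and Arntl, a core activator, was at 7.59, 5.28 and 5.29 in KO, against 6.38, 5.49 and 5.62 in WT. KO array 1 was lowest in Dbp and highest in Arntl. Adipoq, the adipocyte hormone adiponectin, was at 4.75, 4.43 and 4.79 in KO, against 4.38, 8.02 and 7.01 in WT. Car3, a carbonic anhydrase abundant in fat, was at 4.87, 4.61 and 4.44 in KO, against 4.44, 7.81 and 7.36 in WT. WT arrays 2 and 3 detected both genes and the other 4 arrays did not. Ces1d, an esterase that is abundant in fat and liver, was at 5.93, 5.78 and 5.08 in KO, against 6.40, 8.27 and 7.15 in WT (difference -1.68, SE 0.82). All KO arrays lay below all WT arrays, WT array 1 being the nearest. In the list of white and brown adipose markers, Adipoq among them, 5 of 11 tested were higher and 6 lower in KO, with a median of -0.09. Without KO array 1 the median was -0.38 with 9 of 11 lower, and with array weights it was -0.35 with 8 lower. Without WT array 3 it was -0.005 with 6 lower. The list's median deviation was 0.09, -0.32 and -0.50 on KO arrays 1 to 3, against -0.14, 0.05 and 0.05 on WT arrays 1 to 3. The part of fat was not tested.

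Whether the knockout effect in females differed from that in males was tested directly. Between females and intact males 0 genes (0%) passed, with 181 (1.74%) at an unadjusted p under 0.05. Between females and castrated males 0 (0%) passed, with 460 (4.43%) at that level. Within the males, KO minus WT had 275 genes (2.65%) at that level in intact and 651 (6.27%) in castrated males, again with 0 passed. The median standard error of such a difference was 0.291. Castrated KO array 1 was the dimmest of the series (mean signal 244, 27.8% of probes detected).

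Against intact males, several genes of low p had their larger difference in the males. Rmdn1, a microtubule-associated protein, had a KO minus WT difference of -0.57 in females and 1.19 in intact males (difference of effects -1.76, SE 0.36, limma adjusted p = 1.00). Egr1, an immediate early transcription factor, differed by 0.39 in females and -3.75 in intact males (difference of effects 4.14, SE 1.06). Immediate early genes as a list had medians of 0.05 in females and -1.52 in intact males. Prl8a2 differed by 1.85 in females, -0.82 in intact males and -0.36 in castrated males (2.68, SE 0.78, against intact males). Its level averaged 7.76 in KO females and 5.91 in WT females, and lay between 5.31 and 6.13 in the 4 male groups. Myo1d differed by -1.13 in females, near background in KO, and by 0.20 in intact and 0.08 in castrated males.

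Against castrated males, proliferation genes stood on opposite sides. Aurka had a KO minus WT difference of -0.65 in females and 0.66 in castrated males (difference of effects -1.31, SE 0.32, limma adjusted p = 0.911). Over the 21 proliferation genes the medians were -0.39 in females, 0.19 in castrated males and -0.07 in intact males. The difference of effects against castrated males was lower in 18 of 21, with 10 lower at an unadjusted p under 0.05. The share of all genes at that level, here and below, counts both directions and was 4.43%. Without castrated KO array 1 the difference of effects was lower in 21 of 21, with 6 at that level (4.12% of all genes). Without KO female array 1 it was lower in 17, with 8 (2.5% of all genes). These counts were not taken without WT female array 3, where KO minus WT in females had 0 proliferation genes at that level. Against intact males the difference of effects was lower in 20 of 21, with 1 at that level (1.74% of all genes). The interferon list had medians of -0.23 in females, 0.11 in castrated males and 0.01 in intact males. In each difference of effects 3 of 27 had an unadjusted p under 0.05. The share of all genes was 4.43% against castrated and 1.74% against intact males. Cd74 differed by -0.78 in females and -0.56 in castrated males, against 0.15 in intact males. Cldn7, a tight junction protein, differed by -0.44 in females and 1.18 in castrated males, the lowest p against castrated males (-1.61, SE 0.37, limma adjusted p = 0.911). Tnfrsf21, a death receptor, followed, with 0.64 in females and -0.80 in castrated males.

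**Figure D4:**
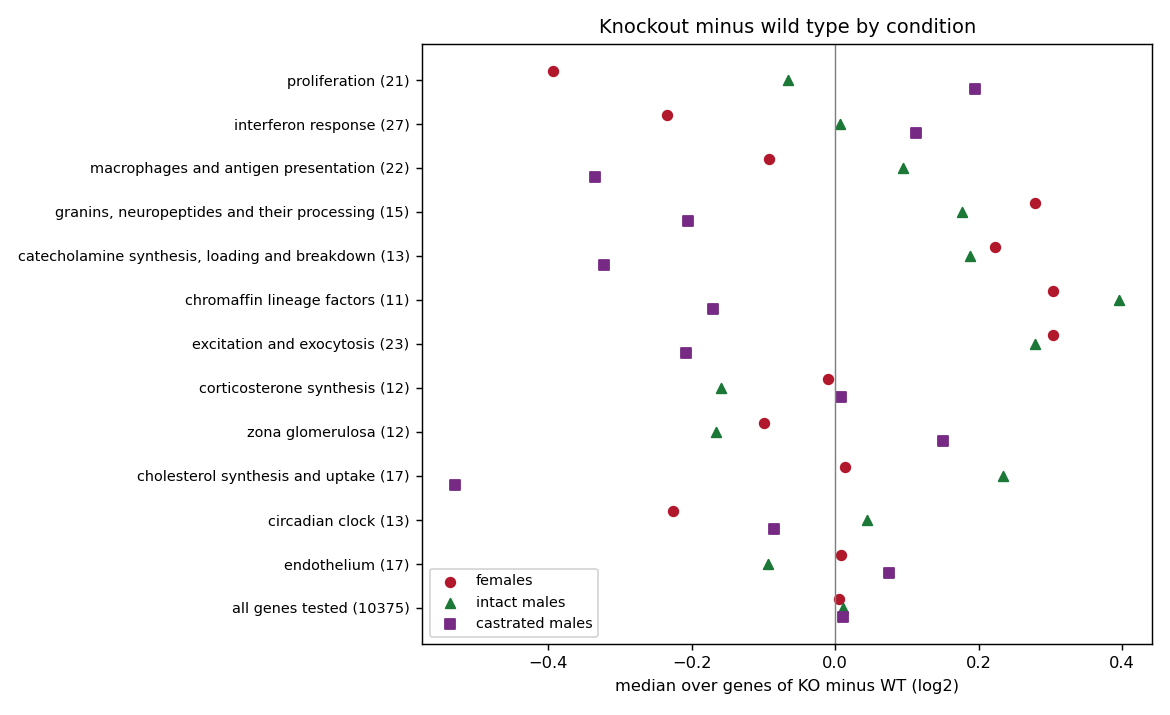
Median over the genes of each list of KO minus WT on the log2 scale, in females (circles), intact males (triangles) and castrated males (squares), with the number of genes tested in parentheses. The proliferation list lies at -0.39 in females, -0.07 in intact males and 0.19 in castrated males. Without KO array 1 the female medians of the 4 medulla lists were 0.031 for catecholamines, 0.037 for granins and neuropeptides, -0.02 for the factors and 0.11 for excitation and exocytosis.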

How the data were processed

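Per the labels' protocols, adrenal RNA came from an RNeasy kit, passed a Bioanalyser check and was turned into biotinylated cRNA for Illumina bead arrays. Per the file headers, the deposited table lists bead intensity by array, beside a detection p-value, for 45281 probes on 18 arrays, with no normalization between arrays. The submitters' processing notes name GenomeStudio without a version. The authors also deposited normalized intensity values, by an unnamed method, which served as an alternative.

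Signals were background-corrected and quantile-normalized with neqc of limma 3.58.1 (R 4.3.3, offset 16, negative controls taken from detection p-values) and put on the log2 scale. The filter was a detection p under 0.01 on 3 or more arrays, which kept 18158 probes, of which 15717 had 1 gene symbol in the platform annotation. The probe with the highest mean stood for each of 10375 genes, of which 3775 had more than 1 probe kept. Of all probes 34885 had 1 symbol, 18 several and 10378 none, and the 2441 kept without a single symbol were fitted apart. One limma model over the 18 arrays with 6 group means (12 residual degrees of freedom, eBayes with trend) gave KO minus WT in females and its difference from the effects in males, with Benjamini-Hochberg adjustment over all genes and a threshold of 0.05. No array was dropped. The number of arrays limits the precision. Neither slide nor scan could be fitted, as no source used here names one. Identical arrays numbered 0 (highest correlation 0.991).

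Genes named were Ephb6 and a set of adrenal genes, the 12 lowest p-values and the 12 largest non-overlapping differences in each direction, the members of each list with the lowest p, and the lowest p-values of each difference of effects and on chromosome 6; not all are printed. A few list members outside this rule were named after their values were seen. The members and lists were chosen with earlier results of these data known. The main fit did not pair samples by replicate number. Deviations of same-numbered KO and WT females correlated at 0.149, 0.148 and -0.0407, and those of differently numbered ones at -0.221 to 0.193. These values do not settle whether the numbers pair the samples. The fit was tested on simulated data with known differences. Alternatives varied the background correction, normalization, source of values, arrays fitted, array weights, block, filter, probe choice and each female array.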

Additional observations from a re-analysis of the deposited data

How the results depend on the processing

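The count of genes past the adjusted threshold was 0 by limma under every alternative run, for KO minus WT in females and for both differences of effects. Ephb6 kept its direction in every alternative run and ranged from -1.60 to -1.30 when each female array was left out in turn. Its limma adjusted p was lowest with array weights, at 0.0632, and was 0.844 with no filter. It was 0.253 without KO array 3, 0.409 without WT array 1 and 0.895 without KO array 2. In the fits without KO array 1, WT array 2 or WT array 3, and with female arrays only, it was at least 0.9997. In females 291 genes had an unadjusted p under 0.05, and the count was 138 with median scaling, 458 with array weights and 617 with no filter, and 161 (without KO array 1) to 527 (without KO array 3) when an array was left out. It was 522 without KO array 2 and 172 without WT array 2. Against intact males the count was 181, and 100 with median scaling, 538 with weights, 489 with no filter and 154 to 290 when an array was left out. Against castrated males it was 460, and 305 with median scaling, 870 with no filter and 259 to 650 when a female array was left out. Without castrated KO array 1 it was 427. The fits on female arrays alone give no difference of effects.

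The alternatives for probes without a symbol were chosen after the data were seen. Of them, 0 passed with female arrays only and 0 with detection on all 18 arrays, where ILMN_2476405 is filtered out. The count was 0 to 2 when an array was left out: 0 without KO array 1, KO array 3, WT array 2 or WT array 3, and 2 without WT array 1. The difference of ILMN_2476405 was 2.47 with female arrays only (limma adjusted p = 1.00) and 2.14 to 3.10 when an array was left out, with an adjusted p of 0.107 without KO array 1, 0.105 without KO array 3, 0.178 without WT array 2 and 0.166 without WT array 3.

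The replicate block, which takes KO and WT samples of the same number as pairs, gave 332 genes at an unadjusted p under 0.05 and 0 passed. Its limma adjusted p was 0.363 for Ephb6 and 0.0165 for ILMN_2476405. The median of all genes was 0.0049, and at most 0.033 under any alternative (median scaling). Of 98 genes named, 25 turned direction under some alternative, and none had passed. With array weights Akr1c18 was at -0.17, Arntl at -0.32, Bst2 at 0.036, Dbp at 0.21, Epha5 at -0.12, Pik3c2g at -0.35 and Star at 0.084. With median scaling C1qb was at 0.0079, C1qc at 0.012 and Efna5 at 0.019. With the mean of a gene's probes Cd8b1 was at -0.043 and Efna4 at -0.069. When an array was left out the values ran over Akr1c18 -0.30 to 0.39, Arntl -0.55 to 0.61, Bst2 -0.15 to 0.065, C1qb -0.085 to 0.015, C1qc -0.12 to 0.029 and Cd3e -0.31 to 0.051. They ran over Cd3g -0.23 to 0.056, Cyp11b2 -0.27 to 0.40, Dbp -0.53 to 0.36, Efna1 -0.036 to 0.13, Efna4 -0.18 to 0.28 and Efna5 -0.092 to 0.042. They ran over Egr1 -0.56 to 1.10, Epha2 -0.097 to 0.32, Epha5 -0.19 to 0.39, Ephb1 -0.032 to 0.16, Isg15 -0.24 to 0.031 and Lyz2 -0.094 to 0.15. They ran over Mcm3 -0.25 to 0.12, Pik3c2g -0.52 to 0.51, Star -0.23 to 0.12, Th -0.091 to 0.42, Usp18 -0.18 to 0.024 and Xist -0.96 to 0.085. The cause of these turns was not tested. The limits are the 3 arrays a group, KO array 1, and the dim signal of Ephb6 and Myo1d, for which the array bounds a difference more than it measures one.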

Other observations

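Genes that no comparison above turned on lay near 0 in females. Of 32 tested subunits of respiratory complex I, 25 were higher in KO with a median of 0.034 and 1 had an unadjusted p under 0.05. The split was 15 higher and 17 lower without KO array 1 (median -0.029) and with array weights (-0.022), and 31 higher and 1 lower with median scaling (0.12). Heat shock and unfolded protein genes (21 tested) had a median of 0.015, glucocorticoid-induced genes (13) of 0.079 and endothelial markers (17) of 0.0075, with 0 at an unadjusted p under 0.05 in these 3 lists. The glucocorticoid-induced median was -0.015 without KO array 1, and the heat shock median 0.12 with median scaling.

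Markers of supporting cells followed arrays of either genotype. The 11 smooth muscle and pericyte markers had median deviations of 0.37, 0.03 and -0.20 on KO arrays 1 to 3, against -0.54, 0.67 and -0.15 on WT arrays 1 to 3. The 17 fibroblast and capsule markers had 0.22, 0.03 and -0.18 in KO, against -0.24, 0.46 and -0.16 in WT. Without KO array 1, Abca4 (1.24, SE 0.35) and Pir (0.91, SE 0.27) had the lowest p-values after Ephb6 (limma adjusted p = 1.00 each), genes chosen after their values were seen.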
